A study of Spodoptera frugiperda with 15 samples.

Results

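LOC118273155 and LOC118273165 are 2 of the 20784 genes of the deposited table for the fall armyworm, *Spodoptera frugiperda*, and both are described there as lipase member H-A-like. They were selected on these values themselves, chosen by their rise in level from control to spinetoram and cyantraniliprole, so what they show in those comparisons is a description and carries no test. Both passed the filter on low counts, as did 15505 genes in all. The description rests on similarity to genes of other species and was taken as deposited.

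Lipases of this family are secreted or membrane-bound hydrolases related to the pancreatic lipases of vertebrates, and they cleave fatty acids from triacylglycerols or phospholipids. Lepidopteran genomes carry many of them, often in tandem arrays, and larvae use several in the midgut to digest dietary fat. Lipase member H of mammals is a phospholipase A1 that makes lysophosphatidic acid. The deposited annotation gives both genes lipase activity, phosphatidylcholine 1-acylhydrolase activity and a part in lipid catabolism.

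RNA was sequenced from whole bodies of WT insects in 15 libraries, 3 for each of 5 treatments named control, emamectin benzoate, tetrazolidamide, cyantraniliprole and spinetoram. Emamectin benzoate is an avermectin acting on glutamate-gated chloride channels, cyantraniliprole is a diamide acting on ryanodine receptors, and spinetoram is a spinosyn acting on nicotinic acetylcholine receptors. No dose, duration, sex or stage is labelled, and nothing says that the 3 libraries of a treatment are separate animals or rearings, so a p-value here reflects the spread among these libraries, which may be technical. The libraries held between 50600821 and 77183281 units of estimated counts, of which 1 read pair adds about 3.78. In whole bodies, fewer cells of a type and less RNA per cell cannot be told apart.

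Both genes lie on the forward strand of the chromosome named NC_049711.1 in the deposited table, whose genome build is not given in the sources used here. LOC118273165 spans positions 13635587 to 13637658 and LOC118273155 spans 13813697 to 13815788, so their starts are 178110 bp apart. Another 25 genes start between them. Each of the pair sits between lipase member H-like genes on the same strand. For LOC118273165 these are LOC118273283, which ends 266 bp before it, and LOC118273252, which begins 1082 bp after it. For LOC118273155 they are LOC118273294, 244 bp before it, and LOC118273242, 1028 bp after it.

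LOC118273155 was low in every control library and higher in every treated one. Its level was 1.72, 2.29 and 2.53 CPM (counts scaled to library size with TMM factors) in control libraries 1 to 3. It was 24.5, 10.3 and 19.7 CPM with emamectin benzoate and 23.9, 9.49 and 31.5 CPM with tetrazolidamide. The lowest of these 6 treated libraries, tetrazolidamide 2, lay above all 3 controls. It was 23.4, 37.7 and 24.1 CPM with cyantraniliprole and 129, 72.6 and 74.1 CPM with spinetoram. The 3 spinetoram libraries lay above the other 12.

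LOC118273165 followed the same profile at a higher level. It stood at 5.69, 4.09 and 4.38 CPM in control, at 47.8, 17.2 and 36.1 CPM with emamectin benzoate, and at 44.4, 20.4 and 54.8 CPM with tetrazolidamide. It reached 39.4, 86.7 and 51.3 CPM with cyantraniliprole and 223, 125 and 148 CPM with spinetoram. Again no treated library fell into the range of the controls and no other library into that of spinetoram. The control values rest on about 26 to 47 read pairs per library for LOC118273155 and 60 to 86 for LOC118273165, against 880 to 2272 and 1510 to 3920 with spinetoram.

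**Figure D1:**
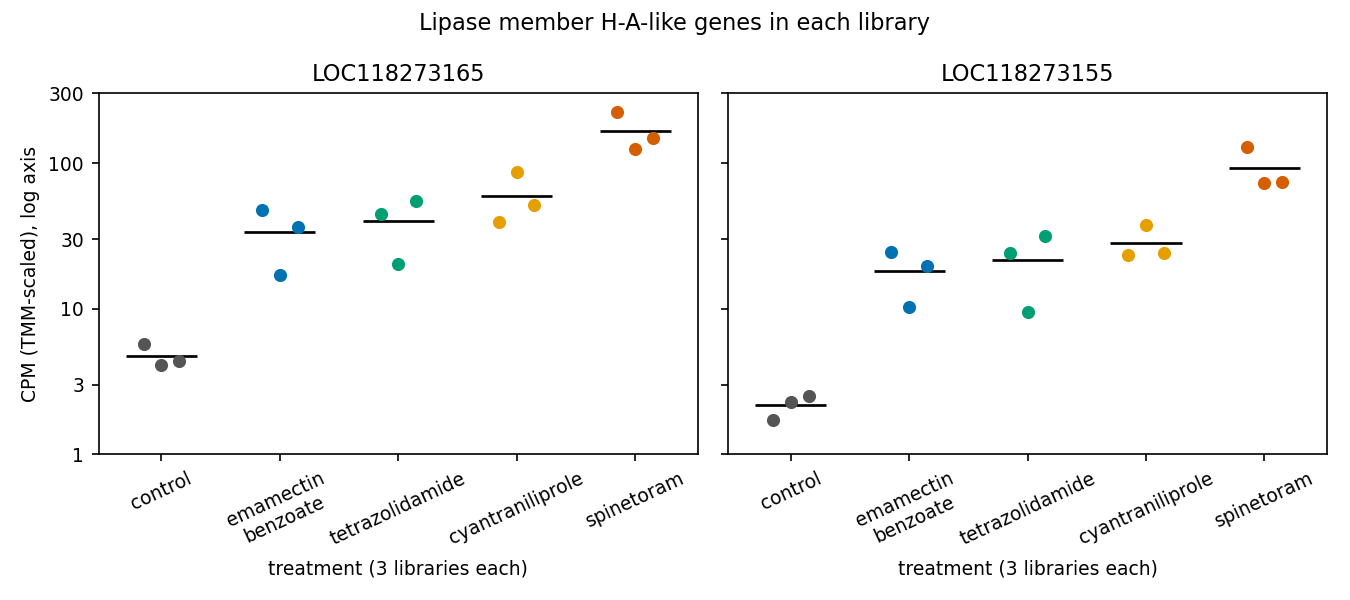
Level of LOC118273165 (left) and LOC118273155 (right) in CPM on a log axis, by treatment; each point is 1 library and each bar the mean of 3. Spinetoram libraries sit at 125 to 223 CPM (left) and 72.6 to 129 CPM (right), above every other library, and control libraries lie below every treated one.

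The order of the treatment means was the same in both genes: control, emamectin benzoate, tetrazolidamide, cyantraniliprole, spinetoram. For LOC118273155 the means were 2.18 ± 0.42, 18.2 ± 7.2, 21.7 ± 11, 28.4 ± 8.1 and 91.9 ± 32 CPM in that order (SD, n = 3 each). For LOC118273165 they were 4.72 ± 0.85, 33.7 ± 15, 39.9 ± 18, 59.1 ± 25 and 165 ± 51 CPM. In both genes emamectin benzoate overlapped tetrazolidamide, and tetrazolidamide overlapped cyantraniliprole, so the middle of the order is within the spread between libraries. Without emamectin benzoate 2, or without tetrazolidamide 3, the mean of emamectin benzoate was no longer below that of tetrazolidamide in either gene, and 9 of the 10 pairs of treatments kept their order.

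Both genes rose with emamectin benzoate and with tetrazolidamide, the comparisons with control that did not choose them, although the 3 controls are the same ones. With emamectin benzoate the log2 fold change was 3.06 (SE 0.46, edgeR quasi-likelihood test, Benjamini-Hochberg adjusted p = 0.00914) for LOC118273155. It was 2.84 (SE 0.46, edgeR adjusted p = 0.0124) for LOC118273165. These calls stand beside 2.31% of all tested genes called higher in that comparison. The lack of overlap stands beside 13.6% of genes with all 3 treated libraries above all 3 controls. The 2 genes are repeated copies that may share reads, as given below, so in every comparison their results are not separate from each other.

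With tetrazolidamide the log2 fold change was 3.31 (SE 0.47, edgeR adjusted p = 0.000779) for LOC118273155 and 3.08 (SE 0.47, edgeR adjusted p = 0.00113) for LOC118273165. Here 10.9% of tested genes were called higher and 18.2% had no overlap upward. The emamectin benzoate calls were lost when the fit held only the 2 groups compared, at edgeR adjusted p = 0.0987 for LOC118273155 and 0.0996 for LOC118273165, where 0 genes were called against 634. That for LOC118273165 was also lost without emamectin benzoate 3, at a log2 fold change of 2.77 and edgeR adjusted p = 0.0565, where 36 genes were called.

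Emamectin benzoate and tetrazolidamide were not told apart by either gene. The log2 difference, emamectin benzoate minus tetrazolidamide, was −0.25 for LOC118273155 (95% interval −1.18 to 0.67, edgeR adjusted p = 0.729). It was −0.24 for LOC118273165 (−1.18 to 0.70, edgeR adjusted p = 0.744). As ratios of emamectin benzoate to tetrazolidamide the intervals run from 0.442 to 1.60 and from 0.440 to 1.62, so a difference of that size in either direction is not excluded. In that comparison 16.8% of all tested genes were called.

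Spinetoram stood above cyantraniliprole in 3 of 3 libraries in both genes, yet the difference did not pass edgeR's threshold. The libraries of both treatments entered the choice of the pair, each against control and not against each other. A comparison of the 2 treatments is therefore not independent of that choice. The difference was 1.69 on the log2 scale for LOC118273155 (95% interval 0.74 to 2.64, unadjusted p = 0.00212, edgeR adjusted p = 0.149). It was 1.48 for LOC118273165 (0.52 to 2.44, unadjusted p = 0.00557, edgeR adjusted p = 0.197). Only 0.103% of tested genes were called higher in this comparison, 16 in number, and 8.9% had no overlap upward. DESeq2 called both genes, with adjusted p = 0.00838 and 0.0329, among 579 calls against 28 by edgeR.

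For the comparisons that chose the pair, the log2 fold change against control was 3.70 and 3.65 with cyantraniliprole and 5.40 and 5.13 with spinetoram, for LOC118273155 and LOC118273165 in turn. The spinetoram means were 42.2 and 35.0 times the control means. In these comparisons 13.3% and 11.6% of tested genes had every treated library above every control.

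Per transcript length, the deposited FPKM of LOC118273165 was the higher of the pair in all 15 libraries. It averaged 4.06 ± 0.65 FPKM in control and 133 ± 47 FPKM with spinetoram (SD, n = 3), against 1.85 ± 0.47 and 72.7 ± 28 FPKM for LOC118273155. The ratio of LOC118273155 to LOC118273165, in CPM, was 0.302 in control 1 and between 0.435 and 0.600 in the other 14 libraries. Its mean log2 value was −1.12 ± 0.53 in the 3 controls and −0.91 ± 0.16 in the 12 treated libraries (SD). The difference of −0.20 gave p = 0.312 in an exact two-sided permutation test of 3 against 12 libraries, whose smallest possible p is 0.0044. Without control 1 the difference was 0.10, with exact permutation p = 0.484.

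By a search made after the data were seen, the pair is one of 23 pairs of genes at this locus that bear the same description, isoform numbers aside, on the same strand at nearly the same spacing. The spacing between the starts of partners ran from 175437 to 180352 bp, and the repeated stretches span positions 13555702 to 13725476 and 13732605 to 13932045. Of the 23 pairs, 12 are lipases, the H-A-like pair among them, and 11 are other genes. In the RefSeq gene table of another assembly, AGI-APGP_CSIRO_Sfru_2.0, 20 of the pairs had 1 partner matched by gene ID, 1 had both and 2 had neither. LOC118273155 was matched and LOC118273165 was not, where 68.8% of all gene IDs in the deposited table were matched. In that assembly the named genes next to LOC118273155 are LOC126911536 on one side and LOC118273283 on the other, the latter being the deposited neighbour of LOC118273165.

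How reads that map equally to both copies were shared out is not given in the sources used here, so how much of the level belongs to either gene is uncertain. Over the 15 libraries the levels of LOC118273155 and LOC118273165 had a Pearson correlation of 0.992 on the log2 scale, a description of points that share libraries, treatments and possibly reads. The other 11 lipase pairs at the locus ran from 0.883 to 0.987. With the counts of each of the 23 pairs summed, an alternative added after the data were seen, the H-A-like pair as 1 gene had log2 fold changes of 2.91 with emamectin benzoate (edgeR adjusted p = 0.00993) and 3.16 with tetrazolidamide (edgeR adjusted p = 0.000855).

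**Figure D2:**
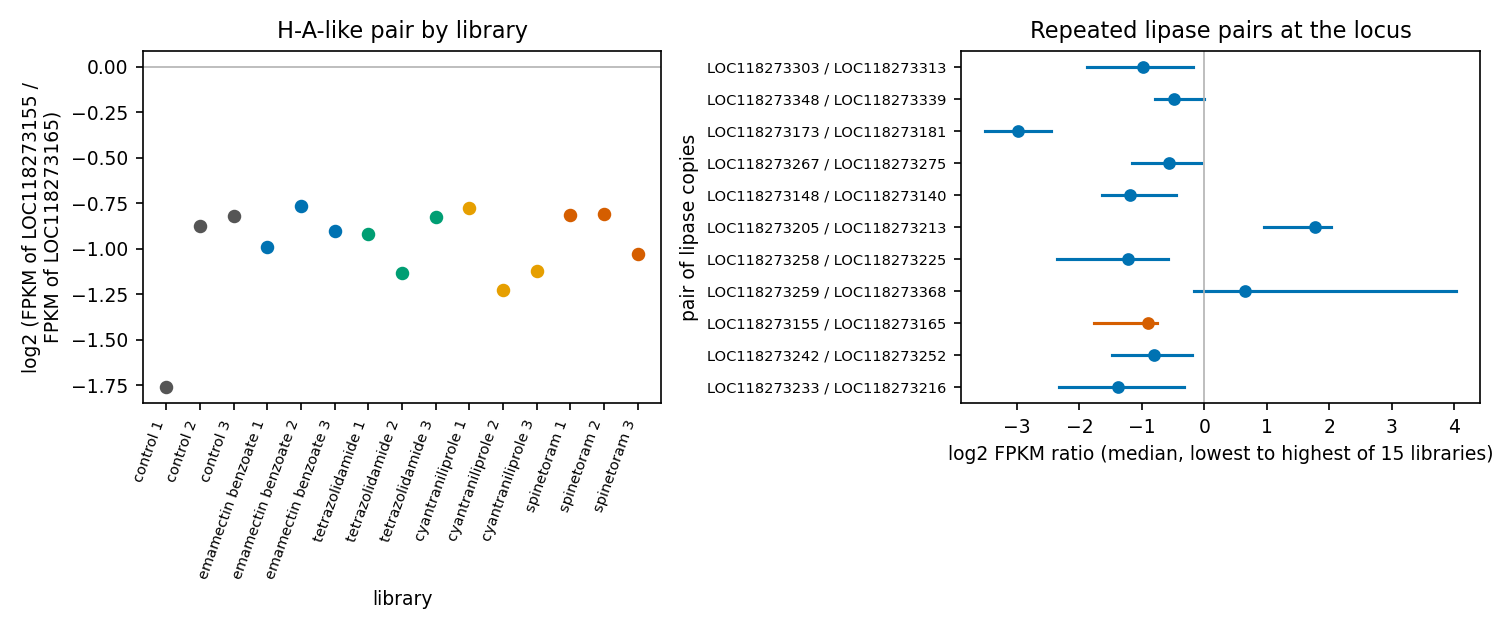
Left, log2 ratio of the FPKM of LOC118273155 to that of LOC118273165 in each of the 15 libraries, coloured by treatment. Right, the same kind of ratio for the lipase pairs at the locus that were above 0 in all libraries, as the median (point) and the lowest to highest library (line), with the H-A-like pair in orange; its median of −0.90 lies among those of the other pairs, which run from −2.98 to 1.78.

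The lipases around the pair did not all move with it. The neighbours were the 10 nearest genes on each outer side and the 25 between, 45 genes of which 43 were tested, and 22 of these are lipases. With emamectin benzoate 3 of the 22 rose and 0 fell, where 2.31% of all tested genes were called higher. With spinetoram 6 rose and 0 fell, where 2.89% of all tested genes were called higher. Those 6 are repeated partners of each other: LOC118273313 and LOC118273303, LOC118273225 and LOC118273258, LOC118273216 and LOC118273233. The 3 with emamectin benzoate were LOC118273313, its partner LOC118273303, and LOC118273216. Partners may share reads, so their calls are not separate results. With cyantraniliprole 1 of the 22 rose by edgeR, where the share of all genes was 1.99%. At an unadjusted p under 0.05 more were higher: 10 with emamectin benzoate, 13 with cyantraniliprole and 14 with spinetoram, and 0 were lower in each. The share of all tested genes at that unadjusted threshold is not given here, so these counts cannot be set against it. DESeq2 called 8, 8 and 13 of the 22 higher in turn, among 1774, 1532 and 1857 calls in either direction over all genes. With tetrazolidamide 0 of the 22 passed by edgeR, 3 were higher and 0 lower at an unadjusted p under 0.05, and DESeq2 called 1, where edgeR called 10.9% of all tested genes higher and 11.4% lower.

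Median log2 fold changes of the 22 neighbouring lipases were 1.45, 0.25, 1.95 and 2.10 with emamectin benzoate, tetrazolidamide, cyantraniliprole and spinetoram, against −0.07 to 0.02 over all tested genes. With tetrazolidamide the H-A-like genes, at 3.31 and 3.08, lay above the highest of the 22, which was 1.78. With emamectin benzoate 2 of the 22 lay above LOC118273165 and 0 above LOC118273155. Counts of neighbours called depended on single libraries: over the 45 neighbours, 6 were called with emamectin benzoate but 0 without emamectin benzoate 3 and 1 without control 1 or emamectin benzoate 1. With spinetoram 6 were called, but 1 without control 2, 3 without spinetoram 1 and 11 without control 3.

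The 4 genes next to the pair, all lipase member H-like, passed in no comparison with control by edgeR. With spinetoram every library of each lay above every control, as for 11.6% of tested genes. With cyantraniliprole this held for LOC118273283, LOC118273252 and LOC118273242 and not for LOC118273294, beside 13.3% of tested genes. With emamectin benzoate and tetrazolidamide it held for none of them. LOC118273283, directly before LOC118273165, stood at 0.474 ± 0.82 CPM in control and 11.6 ± 1.4 with spinetoram (SD, n = 3; edgeR adjusted p = 0.092). Its repeated partner LOC118273294, directly before LOC118273155, stood at 0.887 ± 1.5 and 4.71 ± 0.69 CPM (edgeR adjusted p = 0.439). After them, LOC118273252 had 33.1 ± 18 CPM in control and 135 ± 93 with spinetoram (edgeR adjusted p = 0.124), and LOC118273242 had 20.2 ± 5.7 and 69.4 ± 40 (edgeR adjusted p = 0.119).

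One gene further on, LOC118273216, also lipase member H-like, had the profile most like that of the pair among the neighbours. It averaged 15.0 ± 1.7 CPM in control, 110 ± 54 with emamectin benzoate, 36.3 ± 23 with tetrazolidamide, 101 ± 32 with cyantraniliprole and 295 ± 143 with spinetoram (SD, n = 3). It rose with emamectin benzoate (log2 fold change 2.88, edgeR adjusted p = 0.0203), cyantraniliprole (2.75, 0.0254) and spinetoram (4.30, 0.00693), but with tetrazolidamide it had 1.28 (edgeR adjusted p = 0.0983). Its partner LOC118273233 rose with spinetoram (3.54, edgeR adjusted p = 0.0247) and had a log2 fold change of −0.16 with tetrazolidamide, at 7.43 ± 4.4 CPM against 8.31 ± 4.0 in control.

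On the other side, LOC118273368, a pancreatic triacylglycerol lipase-like gene, had log2 fold changes of −2.71 to 2.43 over the treatments and passed in none. LOC118273225, of the same description, rose with spinetoram to 192 ± 109 CPM from 7.98 ± 3.7 (log2 fold change 4.59, edgeR adjusted p = 0.0237). LOC118273213 (pancreatic triacylglycerol lipase-like) and LOC118273140 (pancreatic lipase-related protein 2-like) passed in none of the comparisons with control, and their values with spinetoram were 1.91 and 2.17 on the log2 scale. Beyond LOC118273233, the exosome subunit gene LOC118273329 (RRP42) and LOC118273082 (ref(2)P-like, whose fruit fly counterpart is an autophagy receptor) had 0.51 and 0.84 with spinetoram and passed in none.

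Of the 21 other neighbours tested, 0 passed with spinetoram or cyantraniliprole by edgeR. At an unadjusted p under 0.05, 5 and 4 were higher, a threshold for which no share of all genes is given here. DESeq2 called 4 and 2 higher, among 1857 and 1532 calls in either direction over all genes. With tetrazolidamide 1 rose, LOC118273096 (ref(2)P-like, log2 fold change 0.90, edgeR adjusted p = 0.0157), and 6 fell, all without an informative description, where 10.9% of all tested genes were called higher and 11.4% lower. With emamectin benzoate 3 of those fell and 0 rose, where 1.78% of all tested genes were called lower. Cuticle protein genes, the markers that moved most with tetrazolidamide, had 68 of 143 tested members higher and 4 lower there, beside the same shares of 10.9% and 11.4%. With emamectin benzoate, cyantraniliprole and spinetoram 8, 8 and 17 of the 143 were higher and 0 lower, beside 2.31%, 1.99% and 2.89% of all tested genes higher. Their summed level was 20319 to 33744 CPM in control, 41183 to 44377 with emamectin benzoate and 49166 to 62870 with tetrazolidamide. It was 26813 to 29679 CPM with cyantraniliprole and 29560.5 to 48041.5 CPM with spinetoram. Their part in these results was not tested.

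**Figure D3:**
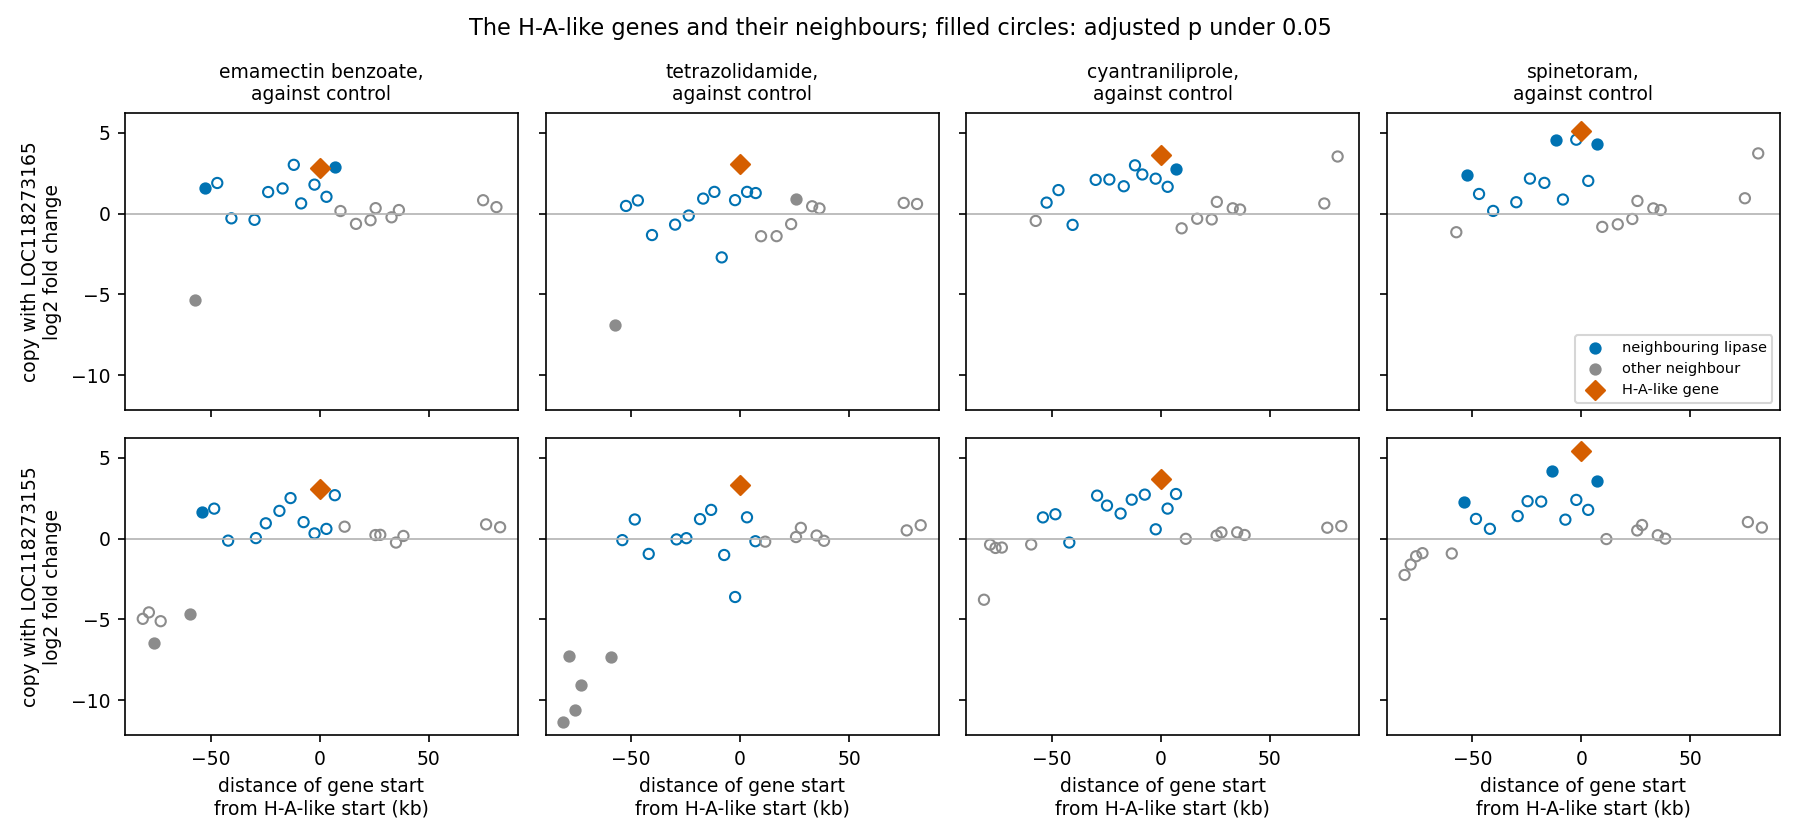
Log2 fold change against control of each tested neighbour against the distance of its start from the start of the H-A-like gene of its copy, in kb, with 1 column per treatment and 1 row per copy. Filled circles passed the edgeR threshold, and the orange diamond is the H-A-like gene, which lies above the neighbouring lipases (blue) with tetrazolidamide at 3.08 (top) and 3.31 (bottom).

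As a share of the lipase transcripts of the locus, measured per length as FPKM, the pair was higher in every treated library than in any control. It held 0.481% to 0.563% in control, 1.10% to 1.96% with emamectin benzoate, 2.71% to 4.02% with tetrazolidamide, 1.92% to 5.05% with cyantraniliprole and 5.06% to 8.08% with spinetoram. The spinetoram libraries lay above all others, with cyantraniliprole 2 just below the lowest of them. Among the 143 genes with the word lipase in their description, LOC118273165 ranked 55 to 61 by FPKM in the controls and 14 to 17 with spinetoram. LOC118273155 ranked 63 to 78 and 21 to 26. The pair was chosen by its rise from control with cyantraniliprole and spinetoram, so its shares and ranks there and in control are a description that the choice favoured.

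Midgut marker transcripts (peritrophins, intestinal mucins, aminopeptidases N, trypsins and chymotrypsins) also differed between the treatments. Of 145 genes on that list 129 were above 0 in some library and 112 were tested. With emamectin benzoate 13 rose and 2 fell, beside 2.31% and 1.78% of all tested genes. With tetrazolidamide 18 rose and 6 fell, beside 10.9% and 11.4%. With cyantraniliprole 7 rose and with spinetoram 15, beside 1.99% and 2.89%, and 0 fell by edgeR in either. Their summed level was 6414 to 9510 CPM in control, 24148 to 35411 with emamectin benzoate, 9455 to 11614 with tetrazolidamide, 8216 to 20213 with cyantraniliprole and 18434 to 30053 with spinetoram.

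No measure of association between the pair and that sum was computed. Both were lower in every control than in every emamectin benzoate and spinetoram library. Tetrazolidamide libraries held 24.9 to 60.1 FPKM of the pair and controls 5.24 to 6.44 FPKM, at midgut marker sums of up to 11614 and 9510 CPM. Cyantraniliprole 2 had the lowest marker sum of its group, 8216 CPM, and the highest level of the pair, 116 FPKM. Emamectin benzoate libraries had marker sums as high as those of spinetoram and 22.9 to 61.3 FPKM of the pair, against 148 to 290 with spinetoram. Summed fat body markers were 3780 to 9532 CPM in control, 3704 to 6941 with emamectin benzoate, 1515 to 5246 with tetrazolidamide, 3759 to 6532 with cyantraniliprole and 2960 to 6740 with spinetoram. Summed muscle markers were 109035 to 196166 CPM in control and 105218 to 250641 over the treated libraries. How far a change in the share of gut tissue or contents enters the levels of the pair was not tested.

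**Figure D4:**
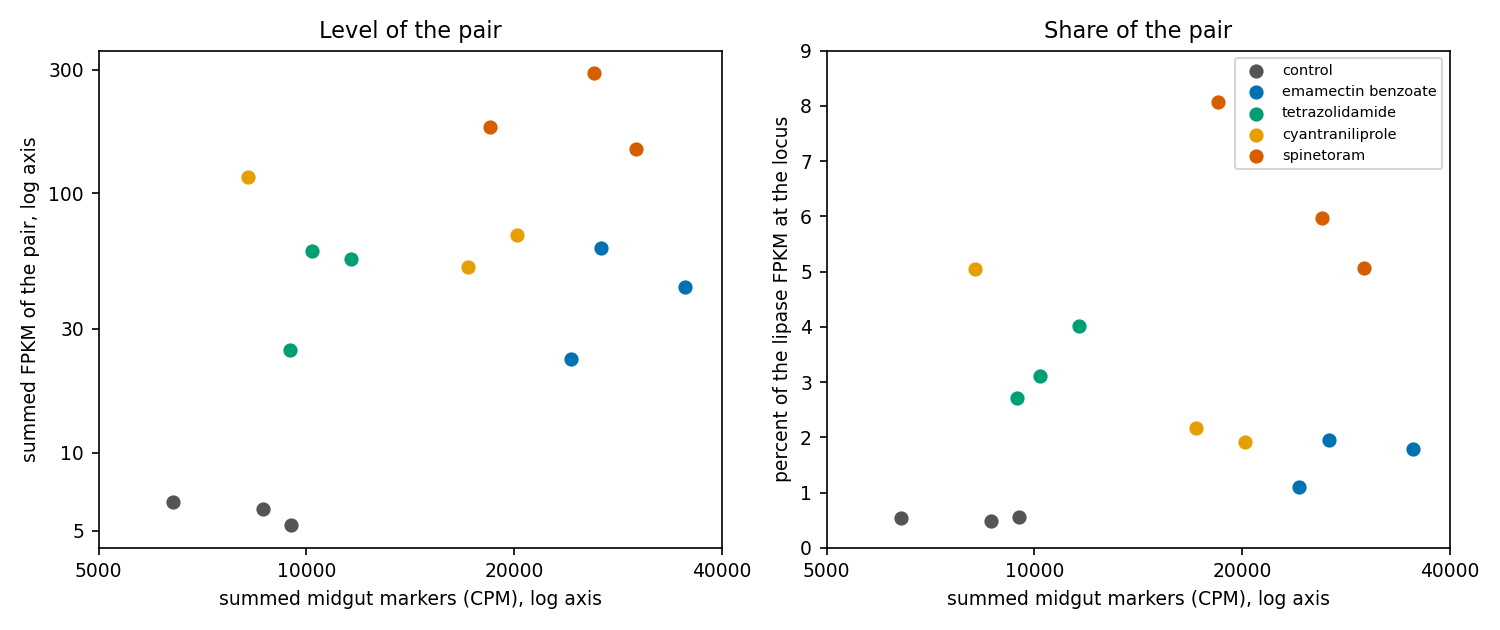
Summed FPKM of the H-A-like pair (left, log axis) and its percent share of the lipase FPKM at the locus (right) against summed midgut markers in CPM (log axis); each point is 1 library, coloured by treatment. Cyantraniliprole 2 has 116 FPKM of the pair at a marker sum of 8216 CPM, and controls lie lowest in both panels.

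Depending on the treatment, 1 to 11 of the other lipases lay further above control than a gene of the pair, most of them with tetrazolidamide. Of the 141 lipase genes that are not of the pair, 124 were tested. With emamectin benzoate 7 rose and 2 fell at a median log2 fold change of 0.45, where 2.31% of all tested genes were called higher and 1.78% lower. With tetrazolidamide 16 rose and 11 fell at 0.15, where those shares were 10.9% and 11.4%. With cyantraniliprole 4 rose and 0 fell at 0.63, and with spinetoram 9 rose and 0 fell at 0.77, where 1.99% and 2.89% of all tested genes were called higher. Of these 124, 2, 10, 3 and 1 had a log2 fold change above that of LOC118273155 in turn, and 4, 11, 3 and 2 above that of LOC118273165. The pair was chosen by its rise with cyantraniliprole and spinetoram, so its place among the lipases in those 2 comparisons follows from the choice. The same 3 controls serve the comparisons with emamectin benzoate and tetrazolidamide, so the choice may have favoured its place there too. Between spinetoram and cyantraniliprole 0 of the 124 passed by edgeR. There, 11 were higher and 8 lower at an unadjusted p under 0.05, for which no share of all genes is given here. DESeq2 called 2 higher and 2 lower, among 579 calls in either direction over all genes.

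The 3 other lipases with the highest mean level had control means of 217 to 414 CPM. LOC118273205, a pancreatic triacylglycerol lipase-like gene of the locus, averaged 222 ± 98 CPM in control, 512 to 728 in the means of the other treatments and 1086 ± 554 with spinetoram. Its libraries with emamectin benzoate, cyantraniliprole and spinetoram lay above all controls, as did those of 13.6%, 13.3% and 11.6% of tested genes. Those with tetrazolidamide overlapped control. LOC118273205 passed in no comparison with control (edgeR adjusted p = 0.0687 with spinetoram). LOC118265452, lipase member I-like, had 414 ± 301 and 183 ± 75 CPM and passed in none. The acid digestive lipase LOC118264586 rose with emamectin benzoate (log2 fold change 1.57, edgeR adjusted p = 0.0479) and spinetoram (1.73, 0.0361), and stood at −0.47 with tetrazolidamide.

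The 3 lipases with the smallest p for any difference among the 5 groups were highest with tetrazolidamide. LOC118265609, lipase member H-like, reached 46.4 ± 15 CPM there against 0.748 ± 0.44 in control (log2 fold change 5.95, edgeR adjusted p = 0.00187). LOC118276221, bile salt-activated lipase-like, reached 131 ± 32 against 17.8 ± 5.2 (2.88, edgeR adjusted p = 0.00053), and LOC118269306, lipase 1-like, 8.48 ± 5.2 against 0.229 ± 0.20 (5.18, edgeR adjusted p = 0.00174). With spinetoram these 3 had log2 fold changes of 2.13, 1.03 and 1.67 and did not pass, whereas the H-A-like pair was highest there.

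Of 21 tested genes of fat uptake and transport, 1 rose and 0 fell with each of emamectin benzoate, cyantraniliprole and spinetoram, where 2.31%, 1.99% and 2.89% of all tested genes were called higher. With tetrazolidamide 5 rose and 4 fell, where 10.9% of all tested genes were called higher and 11.4% lower. Their median log2 fold changes lay between −0.07 and 0.29. Of the most abundant, LOC118280748 (apolipophorins, the lipid carrier of the haemolymph) fell with tetrazolidamide to 614 ± 368 CPM from 2788 ± 1169 (log2 fold change −2.18, edgeR adjusted p = 0.00798); of the 18 fat body markers tested, this gene among them, 2 rose and 4 fell there. LOC118274630 (apolipophorin-3) and LOC118275188 (fatty acid-binding protein 1-like) passed in no comparison with control.

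The genes whose profile was most like that of the pair were found by Pearson correlation with its mean log2 CPM over the 15 libraries, among 12068 genes with a mean of at least 1 CPM. The points share treatments and libraries, and the median over all genes was 0.01. Genes found this way were picked by their likeness to the pair in these same libraries. Their rise against control is therefore a description and carries no test. Of the 8 closest with an informative description, 4 are lipases and 3 of those are neighbours. The closest, LOC118281120, is a lipase member H-like gene on the chromosome named NC_049740.1, with a correlation of 0.925, and 0.773 after each group's mean was subtracted.

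LOC118281120 stood at 4.18 ± 1.1 CPM in control, 21.1 ± 5.3 with emamectin benzoate, 27.2 ± 13 with tetrazolidamide, 43.7 ± 18 with cyantraniliprole and 47.8 ± 30 with spinetoram (SD, n = 3), the same order as the pair. It was higher in all 4 comparisons with control, by log2 fold changes of 2.34, 2.70, 3.39 and 3.51, as its choice favoured. Its spinetoram and cyantraniliprole libraries overlapped, at a log2 difference of 0.13, and those of the pair did not. That lack of overlap was shared by 8.9% of tested genes. The neighbouring lipases LOC118273313, LOC118273303, LOC118273216, LOC118273258, LOC118273283 and LOC118273294 were among them. Of the 22 neighbouring lipases, 4 had a larger difference than LOC118273155 and 6 a larger one than LOC118273165, and 0 passed by edgeR.

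LOC118262733 (growth hormone-regulated TBC protein 1-A, of a family that switches off Rab GTPases) followed at 0.912. It moved far less, from 3.83 ± 0.12 CPM in control to 7.19 to 8.38 in the treatment means, and rose with each treatment by log2 fold changes of 0.91 to 1.13. LOC118266618 (CD63 antigen-like, a tetraspanin of endosomal membranes) had 0.879 and also rose with each treatment, by 1.16 to 1.59. The neighbouring lipases LOC118273216, LOC118273258 and LOC118273283 had 0.882, 0.873 and 0.863. LOC118275674 (esterase E4-like, of the carboxylesterase family, a member of which breaks down and binds insecticides in aphids) had 0.866, and LOC118263444 (egh, a mannosyltransferase of glycolipid synthesis in the fruit fly) 0.862.

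**Figure D5:**
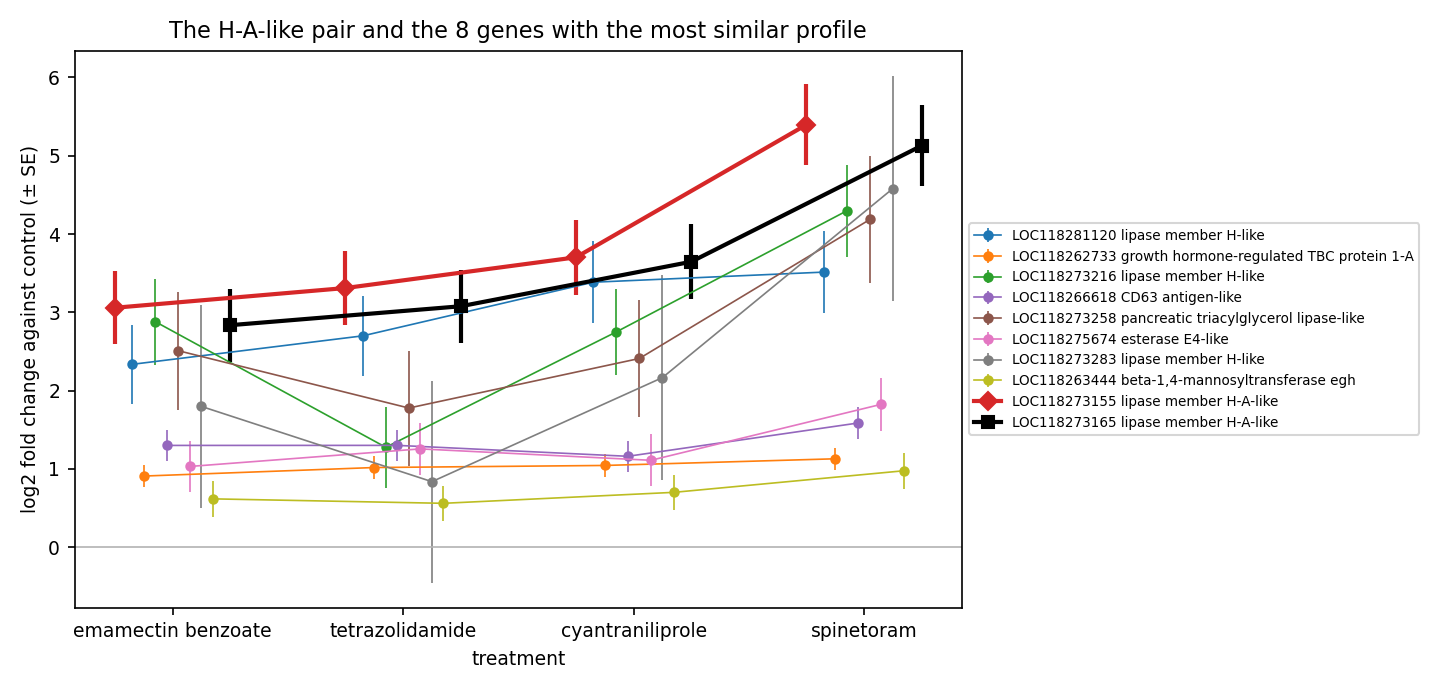
Log2 fold change against control with its SE for the H-A-like genes (red diamonds and black squares) and the 8 described genes most similar to them, by treatment. The H-A-like genes reach 5.40 and 5.13 with spinetoram, and LOC118281120 is the one of the 8 nearest to them with tetrazolidamide, at 2.70.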

How the data were processed

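Per the labels' protocols, poly(A) RNA was used and a dUTP step kept the strand, whose use in counting is not given in the sources used here. Tools named without roles in the submitters' processing notes are HISAT2 2.0.4, cutadapt 1.9, DESeq2, edgeR and StringTie 1.3.4d. The deposited table holds the authors' estimated counts as unscaled whole numbers and, per the file headers, FPKM values computed by the authors. The 15 libraries entered one edgeR 4.0.16 model in R 4.3.3 (quasi-likelihood, TMM factors, filterByExpr with a minimum count of 10), with p adjusted over 15505 genes and a threshold of 0.05. The common dispersion was 0.3. FPKM was used for levels per length. Markers and gene lists were patterns on descriptions. Named were the pair, neighbours with a description, the 3 highest and 3 smallest-p other lipases, the 3 highest fat absorption genes and the 8 most similar genes. Members, lists and rules were chosen with earlier results of these data known, in which LOC118273155 already stood out, so they are no independent support. Alternatives were a test with DESeq2 1.42.0, size factors from that tool, testing genes of any count, requiring FPKM of 5 in 3 libraries, fitting just the groups compared, a replicate block and leaving out libraries. Repeated copies were genes of one description (isoform numbers removed) and strand whose starts lay apart by the spacing of the pair to within 5 kb. The model was also run on simulated counts, with a dispersion set below the common dispersion of these data. That run does not check the calls made here. No sequence of the genes or their promoters was used here.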

Additional observations from a re-analysis of the deposited data

How the results depend on the processing

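Direction and call of the pair held in the comparisons with tetrazolidamide and control under every alternative run. When only the groups compared were fitted, the pair had log2 fold changes of 3.03 and 2.81 with emamectin benzoate and was not called; 0 genes were called there, 1742 with tetrazolidamide, 0 with cyantraniliprole, 2 with spinetoram and 0 between spinetoram and cyantraniliprole, while neighbours, lipases and fat absorption genes had 0 calls with emamectin benzoate, cyantraniliprole and spinetoram, and fat absorption genes 4 with tetrazolidamide. DESeq2 gave 1.71 and 1.5 for spinetoram against cyantraniliprole, both called. DESeq2 called 1774, 1532 and 1857 genes with emamectin benzoate, cyantraniliprole and spinetoram against control and 579 between the last 2, with 14, 10 and 17 neighbours, 20, 17 and 25 lipases and 3, 2 and 2 fat absorption genes against control. The stricter filter gave 2276 calls with tetrazolidamide and 1696 between it and emamectin benzoate, 13 lipases with tetrazolidamide, 2 neighbours with cyantraniliprole, and 2 fat absorption genes with emamectin benzoate and with cyantraniliprole. With no filter the latter had 0. The cause of these shifts was not tested.

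Replicate numbers pair nothing in the labels: in 0 of 10 pairs of treatments did all same-numbered libraries deviate together at a correlation above 0.1 (−0.15 to 0.37), and 5 of 15 libraries correlated best with their own number. With the replicate block, 364 genes were called with emamectin benzoate and 17 between spinetoram and cyantraniliprole, with 3 neighbours for cyantraniliprole and 0 fat absorption genes for emamectin benzoate. The pair kept its calls under the block, at 2.99 and 2.78 with emamectin benzoate and 3.23 and 3.04 with tetrazolidamide.

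Leaving out each library in turn gave, for emamectin benzoate against control, 2.50 to 3.14 for LOC118273165 and 36 to 725 genes called. Called genes ran from 1531 to 2160 between emamectin benzoate and tetrazolidamide, from 3 to 29 between spinetoram and cyantraniliprole, from 76 to 1149 with cyantraniliprole and from 35 to 1075 with spinetoram. The difference of emamectin benzoate and tetrazolidamide ran from −0.61 to 0.13 for LOC118273155 and from −0.58 to 0.071 for LOC118273165. It turned positive without emamectin benzoate 2 (0.027 and 0.071) or tetrazolidamide 3 (0.13 and 0.065). The control minus treated log2 ratio of the pair ran from −0.37 to 0.10, and 9 to 10 of 10 pairs of treatments kept their order. With emamectin benzoate, cyantraniliprole and spinetoram in turn, leaving out libraries gave 0 to 6, 0 to 6 and 1 to 11 neighbours, 0 to 7, 1 to 11 and 2 to 13 lipases, and 0 to 2, 0 to 1 and 0 to 2 fat absorption genes, a repeat added after the data were seen. Control values of LOC118273155 rest on as few as 26 read pairs, which limits the precision of its ratio to LOC118273165 there.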
